A study of Mus musculus with 2 samples.

Results

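The proteasome subunit genes of standard (constitutive) type were read in RNA from sorted mouse lung epithelial cells, 1 library from tumour-bearing mice and 1 from control mice. Members were the rows of either deposited table whose symbol starts with Psm, a letter from a to g and a number, without the immunoproteasome genes Psmb8, Psmb9 and Psmb10. The pattern found 45 of the 15113 genes listed in at least 1 table, and 44 of them were listed in both. Of the 45, 31 encode subunits of the 26S particle (14 of the 20S core and 17 of the 19S cap), 7 encode assembly chaperones, 5 encode activators or an inhibitor, and 1, Psmb11, encodes a thymus subunit. The last, Psmc3ip, shares only its name: it encodes a partner of meiotic recombinases. No row named Psma8, the testis alpha subunit, was listed in either table. Parts of the 19S cap under other symbols, such as Adrm1 and Sem1, fall outside the pattern and are not among the 31.

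Both groups were C57BL/6 mice 6 to 8 weeks old. The control was the wild type without a tumour, and the tumour-bearing group had received 1000000 LLC cells (a lung carcinoma line, here carrying luciferase) under the skin of the back, a graft that in this model later seeds the lung. From dissociated lung, cells without the leukocyte protein CD45 and with surfactant protein C (Sftpc) were sorted. The sources used here do not state how Sftpc was detected or how many mice were pooled. The series asks how epithelial cells of the lung differ before metastasis. With 1 library per group there is no replicate, so no value below has a check on animal-to-animal spread and no p-value is given.

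The proteasome is the protease that degrades proteins tagged with ubiquitin. Its 20S core is a barrel of outer alpha rings, which gate the pore, and inner beta rings, which hold the active sites. The 19S cap binds the ubiquitin chain, removes it, and uses a ring of ATPases to unfold the substrate and feed it into the core. Because each subunit has its own place in the particle, the genes are known to be transcribed in a coordinated way, in part by the factor Nfe2l1, which raises them when the protease is impaired. In the lung, activated leukocytes and epithelium under interferon exchange the catalytic beta subunits for the immunoproteasome forms.

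The deposited unit was RPKM, the reads of a gene divided by its length and by the depth of its library, so levels can be compared between genes. Totals of 5335352 reads (control) and 5387114 reads (tumour-bearing) were recovered from the values, with 13932 and 14283 genes listed. Sftpc itself was the most abundant gene in both libraries, at 18.6% and 11.2% of the summed RPKM, and Ptprc, which encodes CD45, had 12 and 2 reads. Summed RPKM of 10 AT2 (surfactant-producing alveolar cell) markers was 123852 (control) and 87015 (tumour-bearing), with 4 of 10 higher in the latter. Most of each sum was Sftpc, the gene used for sorting, at 94903 and 54968 RPKM, so the fall in the sum is not one of the markers in general. The 8 AT1 markers summed to 1577 and 2500, with 8 of 8 higher in the tumour-bearing library, and the 3 club cell markers to 31925 and 35949, with 1 of 3 higher. Fibroblast markers summed to 25.03 and 422 RPKM with 6 of 6 higher, endothelial markers to 20.1 and 84.7 with 5 of 6 higher, and macrophage markers to 11.99 and 40.0 with 3 of 5 higher. Among these, C1qb and Mrc1 were at 0 in the control, and Chil3 and Mrc1 at 0 in the tumour-bearing library. Pan-leukocyte markers summed to 2.58 and 1.34 RPKM with 0 of 4 higher, and Cd52 was at 0 in both. The part of this different mix in the values below was not tested. In RNA of sorted cells in bulk, fewer cells of a type and less RNA per cell cannot be told apart.

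The 31 subunit genes matched by the pattern were moderately to highly expressed in both libraries, and most were somewhat higher in the tumour-bearing library. Their RPKM ran from 12.3 (Psmd6) to 92.1 (Psmb1) in the control library, between the 66.1 and the 95.8 percentile of the genes listed there. In the tumour-bearing library they ran from 24.8 (Psmd14) to 152 (Psmd8), between the 80.9 and the 97.4 percentile. The median level of the 31 genes was 47.0 RPKM for control cells against 58.0 RPKM with a tumour. Together they held 10487 and 13885 reads, a ratio of 1.31 per library total. The exact 95% interval of that ratio was 1.28 to 1.35, which, like each interval below, covers counting error only. It does not cover the choice of scaling. Other scalings multiply the ratio by 0.97 (trimmed mean), 0.96 (RPKM sum without Sftpc) or 0.93 (upper quartile).

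**Figure D1:**
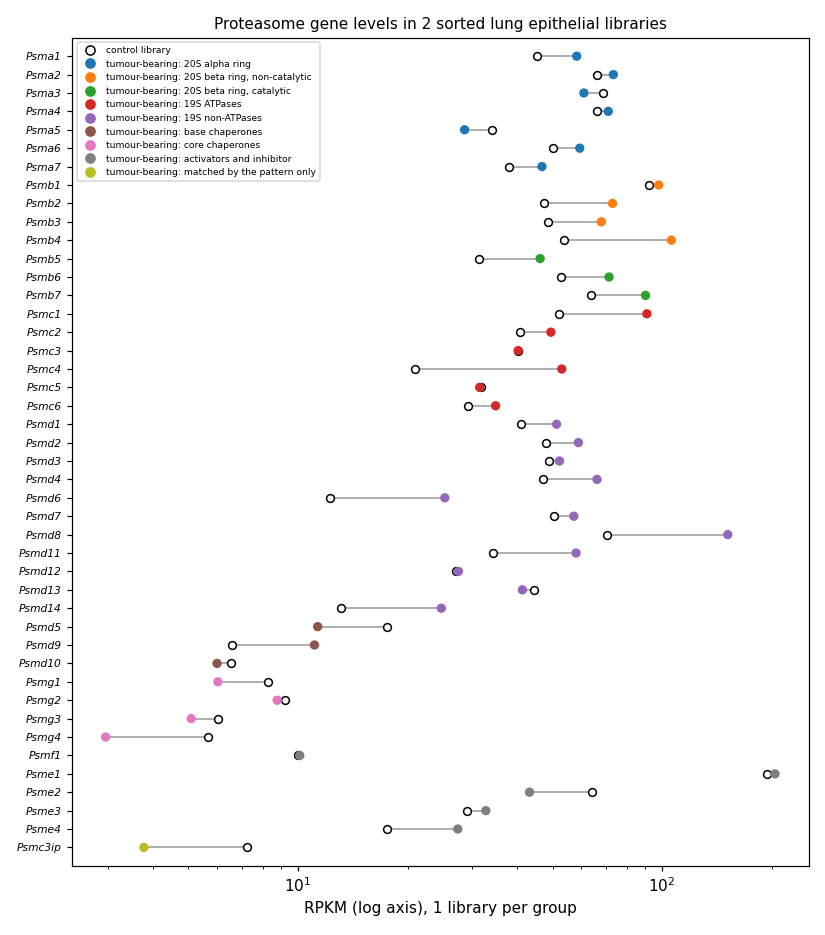
RPKM (log axis) of the 44 proteasome genes at 1 RPKM or more, with an open circle for the control library and a filled circle, coloured by role, for the tumour-bearing library. Psmd8, Psmc4, Psmb4 and Psmd6 have long bars to the right, the alpha ring has short bars, and the assembly chaperones lie at the low end.

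Differences are given on a log2 scale after 1 is added to each RPKM, as the tumour-bearing value minus the control value, here the log2 ratio. It was taken for the 12288 genes that reached 1 RPKM in either library. This filter kept 44 of the 45 members and left out Psmb11. Of the 31 subunit genes, 27 had a log2 ratio above 0, or 87.1%, against 53.8% of all genes tested. Their median log2 ratio was 0.29, with quartiles of 0.10 and 0.58, while the median of all genes tested was 0.06, with quartiles of -0.36 and 0.45. Among the 5134 genes whose summed reads lay in the range of the subunits (265 to 1822), 56.8% were above 0 and the median was 0.08. The number above 0 depended on the scaling. It was 25 of 31 after trimmed-mean scaling, after division by the RPKM sum without Sftpc and after centring on all genes, and 22 of 31 after upper-quartile scaling. The gap between the subunits' median and that of all genes was 0.24 in the main values and 0.23 after upper-quartile scaling.

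The differences were mostly small. At least 2-fold higher were 2 of the 44 members, Psmc4 and Psmd8, or 4.55%, against 9.38% of all genes tested, and 0 were at least 2-fold lower, against 6.53%. At a limit of 1.5-fold, 10 members were higher, or 22.7%, against 19.4% of all genes, and 3 were lower, or 6.82%, against 16.1%. The 10 were Psmc4, Psmd8, Psmd6, Psmb4, Psmd14, Psmc1, Psmd11, Psmd9, Psme4 and Psmb2, and the 3 were Psmd5, Psmg4 and Psmc3ip. Of the 31 subunit genes alone, 8 were 1.5-fold higher (25.8%) and 0 were 1.5-fold lower. Among the 5134 genes in their range of reads, 14.5% were 1.5-fold higher. The counting interval of the read ratio lay wholly above 1 for 19 of the 31 subunit genes (61.3%) and wholly below 1 for 0. This compares with 33.1% above and 26.4% below over all genes, and with 37.3% and 25.6% among genes of the same range of reads. The pattern left out 4 parts of the 19S cap under other symbols. Of these, the interval lay wholly above 1 for Adrm1, wholly below 1 for Sem1 (0.704 to 0.996) and included 1 for 2. Against the median ratio of all genes in place of 1, the interval lay wholly above for 17 of the 31, beside 30.4% of all genes, and wholly below for 2, Psma3 and Psma5, beside 29%. Differences of the 31 subunit genes therefore leaned to the tumour-bearing library. The 2-fold count stayed under the share of all genes tested, which include genes with few reads, while the 1.5-fold share of the subunits lay above that of genes with like reads.

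**Figure D2:**
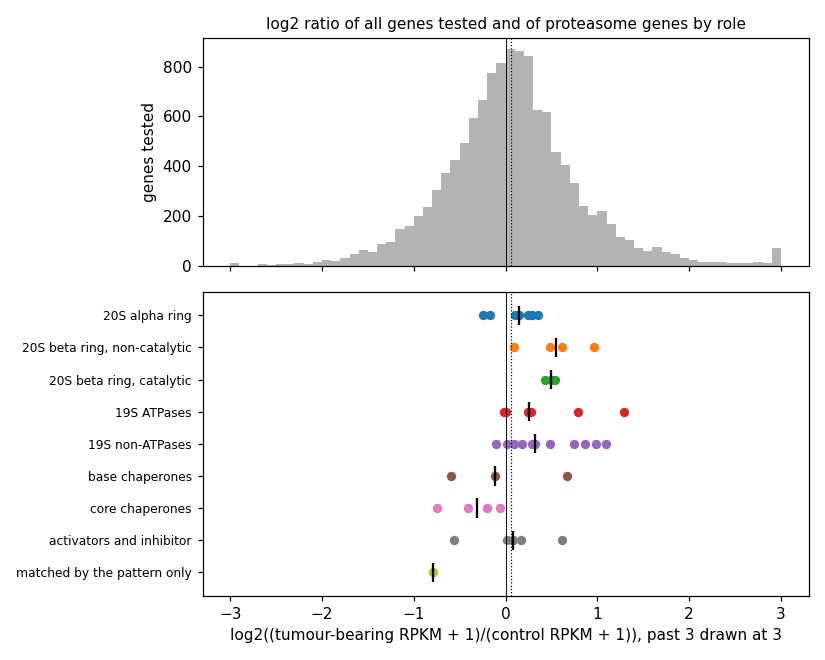
Upper panel, histogram of the log2 ratio of the 12288 genes tested, with values past 3 drawn at 3, and lower panel, the same ratio for each proteasome gene by role, with a black bar at the median of the role. The solid line is 0 and the dotted line the median of all genes, 0.06, and the medians of the alpha ring, beta ring and 19S roles lie to its right, while all 4 core chaperones lie to its left.

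The alpha ring genes Psma1 to Psma7, which form the outer rings of the barrel and its gate, had the smallest summed ratio of the 26S roles. Their reads were 2227 (control) and 2395 (tumour-bearing), a ratio of 1.07 with an interval of 1.00 to 1.13, and 0 of 7 passed 1.5-fold. The median log2 ratio was 0.14, with 5 of 7 above 0 (4 of 7 with upper-quartile scaling, where Psma4 turned). Of all genes tested, 53.8% were above 0, 19.4% were 1.5-fold higher and 16.1% were 1.5-fold lower. Psma1 (GeneID 26440, chromosome 7, 114264550 to 114276116 on GRCm38, the assembly mm10 denotes) had the highest ratio of the alpha ring. It was at 45.4 RPKM in control cells and at 58.3 RPKM in cells of tumour-bearing mice, 1.28-fold higher (1.102 to 1.496). At the other end Psma5 (GeneID 26442, chromosome 3, 108256926 to 108279952) was at 34.2 and 28.7 RPKM, a ratio of 0.84 (0.69 to 1.02), so its interval included 1. Psma3 was at 68.9 and 60.97 RPKM, and its ratio of 0.89 (0.78 to 1.00) also included 1. The intervals of Psma2 and Psma4 included 1 as well, and those of Psma6 and Psma7 began at 1.01 and 1.00. Processed pseudogenes close in sequence to Psma3 and Psma5 exist (100% and 98.6% identity over 685 and 952 bases), so reads of these genes could be shared with them.

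In the beta ring all 7 genes had a log2 ratio above 0, beside 53.8% of all genes tested. Psmb1 turned negative with upper-quartile scaling. The 3 catalytic subunits were close to each other in ratio. Psmb5 (GeneID 19173, chromosome 14, 54614120 to 54617995), which cuts after hydrophobic residues, was at 31.4 and 46.2 RPKM, 1.47-fold higher (1.19 to 1.83). Psmb6 (GeneID 19175, chromosome 11, 70525324 to 70527858), which cuts after acidic residues, was at 52.6 and 71.5 RPKM, 1.36-fold higher (1.16 to 1.59). Psmb7 (GeneID 19177, chromosome 2, 38588046 to 38643952), which cuts after basic residues, was at 63.6 and 90.04 RPKM, 1.41-fold higher (1.23 to 1.63). All 3 intervals lay above 1 and overlapped each other, and 0 of the 3 passed 1.5-fold on the log2(RPKM + 1) scale. Over all genes, 33.1% had intervals above 1 and 19.4% were 1.5-fold higher. The exons of Psmb7 overlap those of Nek6 on the opposite strand over 405 bases, and Psmb5 and Psmb6 have pseudogenes of 92.0% and 92.1% identity. The sources used here do not state whether counting used the strand.

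The non-catalytic beta genes varied more. Psmb4 (GeneID 19172, chromosome 3, 94884324 to 94886958) was at 53.9 and 106 RPKM, 1.97-fold higher (1.70 to 2.28). Psmb1 (GeneID 19170, chromosome 17, 15475721 to 15498276) was at 92.1 and 97.8 RPKM, a ratio of 1.06 (0.94 to 1.201). It was the most abundant of the 31 subunit genes in the control library. Its log2 ratio was 0.09, and -0.02 with upper-quartile scaling. Psmb2 and Psmb3 lay between them, 1.54-fold (1.295 to 1.83) and 1.40-fold (1.16 to 1.70) higher. Summed reads of these 4 genes gave a ratio of 1.41 (1.31 to 1.52), and those of the 3 catalytic genes 1.40 (1.28 to 1.54). Both intervals lay above that of the alpha ring.

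The immunoproteasome genes, which the pattern left out, did not share this direction as a group. Psmb8 was at 34.5 and 30.7 RPKM, a ratio of 0.89 (0.73 to 1.08). Psmb9 was at 9.07 and 11.3 RPKM, a ratio of 1.24 (0.80 to 1.95), and Psmb10 at 11.5 and 8.62 RPKM, a ratio of 0.75 (0.52 to 1.06). All 3 intervals included 1. Each takes the place of a standard subunit, and the level of the standard gene over its counterpart can be read in each library. Psmb5 over Psmb8 was 0.91 in the control library and 1.51 in the other, a quotient of 1.66 (1.24 to 2.22). Psmb7 over Psmb10 was 5.53 and 10.4, a quotient of 1.89 (1.29 to 2.78). Psmb6 over Psmb9 was 5.81 and 6.34, a quotient of 1.09 (0.68 to 1.75), whose interval included 1.

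**Figure D3:**
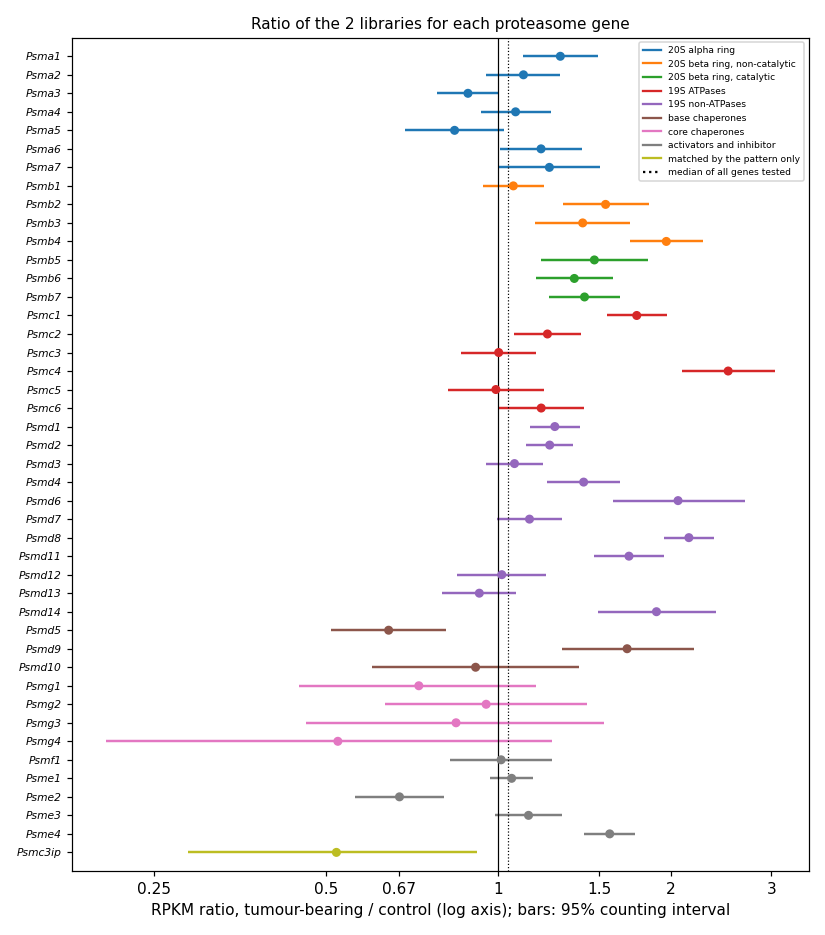
Ratio of RPKM, tumour-bearing over control (log axis), for the 44 genes at 1 RPKM or more, with points for the ratio, bars for the exact 95% counting interval and colours for the role. The solid line is 1 and the dotted line the median of all genes, and Psmc4, Psmd8, Psmd6 and Psmb4 lie farthest to the right, while Psmd5, Psme2 and Psmc3ip have intervals below 1.

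The 19S ATPases, the ring that unfolds the substrate and docks on the alpha ring, included the gene with the highest ratio of all members and genes with ratios near 1. Psmc4 (GeneID 23996, chromosome 7, 28041702 to 28050092) was that gene, at 21.0 RPKM (control) and 53.0 RPKM (tumour-bearing). It held 161 and 410 reads, 2.52-fold higher (2.10 to 3.05), and moved from place 29 to place 18 of the 31 subunit genes by level. Psmc1 (GeneID 19179, chromosome 12, 100110202 to 100123364) was at 52.0 and 90.8 RPKM, 1.75-fold higher (1.55 to 1.97), with a processed pseudogene of 95.6% identity over 1306 bases. Psmc2 was 1.22-fold higher (1.06 to 1.40), and the interval of Psmc6, 1.00 to 1.41, included 1. Psmc3 was at 40.2 and 40.3 RPKM and Psmc5 (GeneID 19184, chromosome 11, 106256185 to 106263112) at 31.8 and 31.5 RPKM, with 217 reads in each library. Their ratios were 1.00 (0.86 to 1.16) and 0.99 (0.82 to 1.201). Summed over the 6 genes the ratio was 1.38 (1.303 to 1.47), while the median log2 ratio was 0.26.

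Among the 11 non-ATPase genes of the cap, which form its scaffold, ubiquitin receptors and deubiquitinase, 4 passed 1.5-fold in the higher direction. The share was 19.4% over all genes tested and 14.5% among genes in the subunits' range of reads. All but Psmd13 had a log2 ratio above 0, where 53.8% of all genes lay. Psmd3 and Psmd12 joined Psmd13 below 0 with upper-quartile scaling. Psmd8 (GeneID 57296, chromosome 7, 29174187 to 29180673), a lid subunit, was at 70.4 and 152 RPKM, 2.15-fold higher (1.95 to 2.38), and was the most abundant 26S gene of the tumour-bearing library. A processed pseudogene, Gm14013, has 94.8% identity to Psmd8 over 270 bases. Psmd6, another lid subunit, was at 12.3 and 25.3 RPKM, a direct ratio of 2.06 (1.59 to 2.70) that stayed just under 2-fold on the log2(RPKM + 1) scale, at 0.99. Psmd14, the deubiquitinase of the lid, was at 13.1 and 24.8 RPKM, 1.89-fold higher (1.49 to 2.41), with a processed pseudogene of 91.3% identity over 847 bases. Psmd11 was at 34.3 and 58.0 RPKM, 1.69-fold higher (1.47 to 1.95), with a near copy of 97.9% identity over 1295 bases in A730017L22Rik. The ubiquitin receptor Psmd4 was 1.41-fold higher (1.22 to 1.63), and the large scaffold subunits Psmd1 and Psmd2 were 1.26-fold (1.14 to 1.39) and 1.23-fold (1.12 to 1.35) higher. A transcribed pseudogene, Gm5422, has 96.4% identity to Psmd2 over 2726 bases. For Psmd3, Psmd7, Psmd12 and Psmd13 the interval included 1. Psmd13 (GeneID 23997, chromosome 7, 140882394 to 140898642), the lowest of the class, was at 44.6 and 41.3 RPKM, a ratio of 0.93 (0.80 to 1.08). Lid subunits were thus found at both ends of the class. The summed reads of the class gave a ratio of 1.36 (1.31 to 1.41).

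The order of levels among the 31 subunit genes was largely kept. The rank correlation of their RPKM between the libraries was 0.88, a description over 31 genes that share the same 2 libraries, beside 0.90 over all genes tested. In each library 28 of the 30 neighbouring pairs in this order had overlapping 95% counting intervals. The pairs without overlap were Psmb1 over Psmd8 and Psmc4 over Psmd14 in the control, and Psmd8 over Psmb4 and Psmb7 over Psma2 in the tumour-bearing library. The highest subunit level was 7.501 times the lowest in the control and 6.12 times in the tumour-bearing library.

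Except for Psmd5 in the control library, the 7 assembly chaperones were read below each of the 31 subunit genes in both libraries. A log2 ratio below 0 was found for 6 of the 7, beside 46.2% of all genes tested. The core chaperones Psmg1 to Psmg4, which pair up to build the alpha ring, all had a log2 ratio below 0, with a median of -0.31. Psmg2 (GeneID 107047) was at 9.20 and 8.76 RPKM, a ratio of 0.95 (0.63 to 1.43). Psmg4 was at 5.65 and 2.96 RPKM, from 17 and 9 reads, a ratio of 0.52 (0.21 to 1.24). The intervals of all 4 included 1, and their summed reads of 141 and 115 gave a ratio of 0.81 (0.63 to 1.04), so at this depth a difference from 1 was not detectable.

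The 3 chaperones of the ATPase base moved apart. Psmd5 (GeneID 66998, chromosome 2, 34852087 to 34870965), which carries a subunit pair of the ATPase ring, was at 17.6 RPKM in control cells but 11.3 RPKM after tumour grafting, 1.55-fold lower (1.24 to 1.96). Psmd9 (GeneID 67151, chromosome 5, 123228190 to 123250126) was at 6.61 and 11.1 RPKM, 1.68-fold higher (1.29 to 2.20). Of its 7248 exonic bases, 1849 overlap an antisense gene, Gm26745, so its reads may not all be its own. Psmd10, known as the oncoprotein gankyrin, was at 6.57 and 5.99 RPKM, a ratio of 0.91 (0.60 to 1.38).

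Activators, which cap the barrel in place of 19S, were divided too. Psme1 and Psme2 encode partners of the same interferon-inducible ring (PA28 alpha and beta), and their genes lie 5.91 kb apart on chromosome 14. Psme1 was the most abundant member in both libraries, at 194 and 204 RPKM, a ratio of 1.06 (0.97 to 1.15). Psme2 (GeneID 19188, chromosome 14, 55587440 to 55591101) was at 64.3 and 43.2 RPKM, 1.49-fold lower (1.25 to 1.78). The level of Psme1 over that of Psme2 was 3.01 in the control library and 4.72 in the other, a quotient of 1.57 (1.29 to 1.92). Psme2b, a copy of 99.4% identity over 794 bases, can share reads with Psme2. Psme4 (GeneID 103554, chromosome 11, 30771775 to 30881150), the nuclear activator PA200, was at 17.5 and 27.5 RPKM, 1.57-fold higher (1.41 to 1.74). Psme3, the nuclear PA28 gamma, and Psmf1, a protein that binds the core and inhibits it in vitro, had ratios of 1.13 (0.99 to 1.29) and 1.01 (0.82 to 1.24).

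Psmb11 was read 7 times in the control library, at 0.31 RPKM, and was not listed in the other table, which makes it at least 2.36-fold lower against a floor of 3 reads. Its exact counting interval allowed a smaller difference, from 1.46-fold lower. It failed the filter on low values. Psmc3ip was at 7.24 and 3.77 RPKM, 1.92-fold lower (1.09 to 3.48), from 38 and 20 reads, and 385 of its exonic bases overlap Mlx on the opposite strand.

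Promoter sequence was read for the members that the results turn on, from the RefSeq table of GRCm38.p6, which held 38 of the 45 genes. Each window covers 250 bases before to 50 after the start of transcription. Letters searched on both strands were TGACNNNGC, the core of the antioxidant response element that Nfe2l1 and Nfe2l2 bind, and CCAAT, the box of the factor NF-Y. The palindromic box of nuclear respiratory factor 1 was searched as well. The first 3 promoters belong to Psmc4 and Psmd8, the members with the highest ratios, and to Psmd14, whose window held the most matches of the 5. The last 2 belong to the catalytic genes Psmb5 and Psmb6. Capitals mark matches, the rest is in lower case, and all read 5′ to 3′ on the strand of the gene. Psmc4 is chr7:28050043-28050342 on the minus strand, Psmd8 is chr7:29180624-29180923 minus, Psmd14 is chr2:61711444-61711743 plus, Psmb5 is chr14:54617946-54618245 minus and Psmb6 is chr11:70525107-70525406 plus.
Psmc4: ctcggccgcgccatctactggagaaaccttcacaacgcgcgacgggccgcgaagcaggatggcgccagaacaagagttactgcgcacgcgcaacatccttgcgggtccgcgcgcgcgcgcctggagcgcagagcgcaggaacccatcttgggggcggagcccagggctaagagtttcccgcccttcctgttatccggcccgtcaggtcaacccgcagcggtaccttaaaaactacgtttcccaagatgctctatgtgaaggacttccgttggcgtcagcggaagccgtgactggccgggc
Psmd8: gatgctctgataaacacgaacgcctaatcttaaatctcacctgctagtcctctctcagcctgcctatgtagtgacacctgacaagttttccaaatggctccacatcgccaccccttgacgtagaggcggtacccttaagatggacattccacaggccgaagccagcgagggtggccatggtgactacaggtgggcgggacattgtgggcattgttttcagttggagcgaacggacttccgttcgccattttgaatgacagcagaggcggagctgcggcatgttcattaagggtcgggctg
Psmd14: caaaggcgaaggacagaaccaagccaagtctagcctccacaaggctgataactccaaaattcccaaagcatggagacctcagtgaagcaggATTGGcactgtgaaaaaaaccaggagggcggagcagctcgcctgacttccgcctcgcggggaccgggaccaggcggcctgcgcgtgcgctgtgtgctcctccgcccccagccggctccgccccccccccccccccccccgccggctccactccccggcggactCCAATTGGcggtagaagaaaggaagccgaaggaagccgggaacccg
Psmb5: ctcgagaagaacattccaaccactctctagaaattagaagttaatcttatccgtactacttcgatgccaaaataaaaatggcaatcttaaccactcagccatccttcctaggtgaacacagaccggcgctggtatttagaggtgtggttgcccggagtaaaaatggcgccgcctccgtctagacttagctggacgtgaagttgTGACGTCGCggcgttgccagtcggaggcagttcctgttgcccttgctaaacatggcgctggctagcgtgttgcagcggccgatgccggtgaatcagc
Psmb6: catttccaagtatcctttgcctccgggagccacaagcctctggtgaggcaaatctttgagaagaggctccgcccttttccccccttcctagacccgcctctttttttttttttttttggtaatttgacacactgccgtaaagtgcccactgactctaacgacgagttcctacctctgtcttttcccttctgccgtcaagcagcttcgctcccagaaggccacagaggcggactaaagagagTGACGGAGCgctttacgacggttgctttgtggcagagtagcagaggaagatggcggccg

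None of the searched letters stood in the windows of Psmc4 and Psmd8. The Psmd14 window held CCAAT 3 times, 2 of them reading on the other strand as ATTGG, and the pair from base 255 to base 262 of the window overlaps. Psmb5 held TGACGTCGC at bases 204 to 212, 47 bases before the start, and Psmb6 held TGACGGAGC at bases 242 to 250, ending next to the start. The antioxidant core stood in 6 of the 38 member genes, or 15.8%, against 14.0% of 27025 genes. These were Psmb5, Psmb6, Psmc6, Psmd12, Psmd9 and Psme4, with log2 ratios between 0.02 and 0.67 and a median of 0.49. The median of the 31 tested members without it was 0.17. CCAAT stood in 14 of 38, or 36.8%, against 41.1%, and the box of nuclear respiratory factor 1 in 2 of 38, Psma2 and Psmg1, or 5.26%, against 1.07%. The members' shares of the first pair of motifs were thus close to those of all genes. A match is a string of letters and says nothing on binding.

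Other genes of the pathway were read from a list of 37, of which 36 were found and tested. Paaf1 was not listed. Of the 36, 2 passed 2-fold in the higher direction and 0 in the lower, against 9.38% and 6.53% of all genes tested. At 1.5-fold, 3 were higher and 3 lower, against 19.4% and 16.1% of all genes. The median log2 ratio was -0.04, with 17 above 0 and 19 below 0, where 53.8% and 46.2% of all genes lay.

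**Figure D4:**
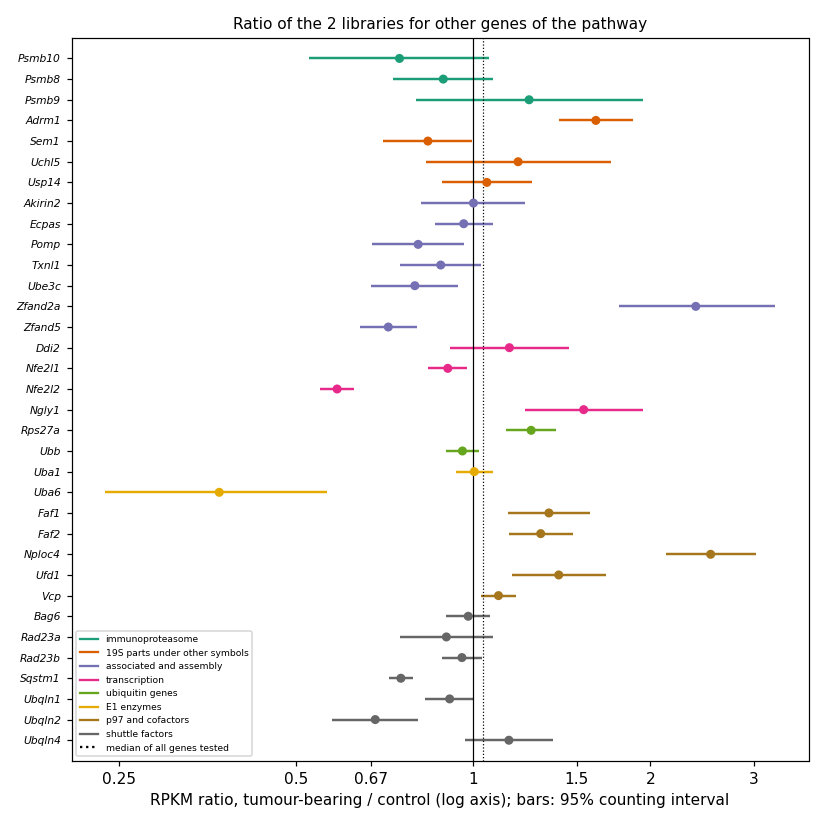
Ratio of RPKM, tumour-bearing over control (log axis), for other pathway genes, with exact 95% counting intervals as bars and colours by group. The p97 group lies to the right of 1, with Nploc4 farthest, while Uba6 and Nfe2l2 lie farthest to the left.

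Of the 19S parts under other symbols, Adrm1, a ubiquitin receptor of the cap, was at 39.9 and 64.4 RPKM, 1.62-fold higher (1.40 to 1.87). Sem1, a small lid subunit listed under an older symbol, was at 111 and 93.0 RPKM, a ratio of 0.837 (0.704 to 0.996). The deubiquitinases Usp14 and Uchl5 had intervals that included 1. The p97 segregase, which pulls ubiquitinated proteins out of membranes and complexes ahead of the proteasome, and its cofactors had intervals above 1 in all 5 genes, beside 33.1% of all genes tested. In 4 of the 5 they also lay above the median ratio of all genes, beside 30.4%. Vcp, which encodes p97, was at 93.0 and 103 RPKM, a ratio of 1.104 (1.03 to 1.18), and its cofactor Nploc4 was at 7.32 and 18.5 RPKM, 2.53-fold higher (2.13 to 3.02). Zfand2a, a heat-inducible partner of the proteasome, was 2.39-fold higher (1.77 to 3.26), from 63 and 152 reads. Pomp, the maturation factor of the beta ring, was at 71.2 and 57.4 RPKM, a ratio of 0.81 (0.67 to 0.96), opposite to the beta genes. Zfand5, which stimulates the protease, had a ratio of 0.72 (0.64 to 0.80).

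The factors and the ubiquitin supply differed gene by gene. Nfe2l1, the regulator of proteasome genes, was at 56.5 and 51.2 RPKM, a ratio of 0.91 (0.84 to 0.98), and Nfe2l2, the antioxidant regulator, was at 178 and 104 RPKM, a ratio of 0.59 (0.55 to 0.63). Of the enzymes that process Nfe2l1, Ngly1 was 1.54-fold higher (1.23 to 1.94) and the interval of Ddi2 included 1. Among ubiquitin genes, Ubb had a ratio of 0.96 (0.90 to 1.02). Rps27a, which encodes ubiquitin fused to a ribosomal protein, had a ratio of 1.25 (1.14 to 1.38). The main ubiquitin-activating enzyme Uba1 had a ratio of 1.00 (0.93 to 1.08), and Uba6, the other E1, was at 3.05 and 1.13 RPKM, a ratio of 0.37 (0.24 to 0.57). Of the 7 shuttle factors, which bring ubiquitinated proteins to the proteasome, 6 had a log2 ratio below 0, beside 46.2% of all genes tested. The intervals of Sqstm1, at 0.75 (0.72 to 0.79), and Ubqln2, at 0.68 (0.58 to 0.81), lay below 1, and those of the other 5 included 1.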

How the data were processed

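RNA of 2 sorted mouse lung epithelial libraries, 1 per group, was compared. The authors deposited 1 table per library with GeneID, symbol, description and RPKM, per the file headers. Trimmomatic and the mm10 build are named, without versions, per the submitters' processing notes, and the sources used here do not give the aligner, counter, annotation, strand setting or pooling. RPKM scales to the library total, so abundant genes such as Sftpc lower the rest.

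Values were compared as deposited. A gene missing from a table counted as 0 RPKM. Whole reads were recovered for 15077 of 15113 genes (99.8%), all 45 members among them, from the common step of the values, whole gene lengths and the descending row order, and 4 of 28141 neighbouring row pairs were then out of order. The totals are estimates of this work. Implied gene lengths matched a GENCODE M21 transcript length exactly for 13.1% of genes. Reads served for exact (Clopper-Pearson) conditional 95% intervals of each ratio, with conditional odds ratios for quotients of pairs. PCR reads without molecular identifiers are not independent molecules, so intervals and the floor of 3 reads cover counting error only.

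The log2 scale used a pseudocount of 1 and a filter of 1 RPKM in at least 1 library. With 1 library per group, size rules of 2-fold and 1.5-fold replaced tests. In simulated data for this comparison with 14963 genes, reads came out for 99.9% of genes and were correct for 99.98% of those, and the 2-fold rule found 98% of genes raised 4-fold and 96% of those lowered to 0.25 of their level, 82% of those raised 2.5-fold and 66% of those lowered to 0.4. Members described in full were the highest and lowest of each role at 5 RPKM or more and every catalytic subunit, and others are given for completeness. Copies were searched with 90% identity over 200 bases among GENCODE M21 transcripts, and exon overlaps in the same annotation. A match to another gene was found for 19 of the 45 members, and not all of these matches are named above. Current symbols and coordinates came from a RefSeq table of GRCm38.p6 by GeneID. Members and lists were chosen with earlier results of these data known, and the pairs of genes set against each other and the comparison with genes of like read number were chosen after their values were seen. Python 3.11.15, numpy 2.4.6, pandas 2.3.3 and scipy 1.17.1 were used. Protein sequences were not used here, and some genes counted in the pathway list are not reported here by name.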

Additional observations from a re-analysis of the deposited data

How the results depend on the processing

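No paired analysis was possible because each group held 1 library. The number of members at least 2-fold higher was 2 in the main values, 1 with upper-quartile scaling, 10 at a limit of 1.5-fold and 0 at 4-fold. It was 3, with Psmd6, at a pseudocount of 0.1 and on recovered reads with 0.5 added. Those at least 2-fold lower were 0, and 3 at 1.5-fold. With the counting interval wholly past 1 as the rule, chosen after seeing the data, 21 members were higher (47.7%) and 3 lower (6.82%). Over all genes the shares were 33.1% and 26.4%. Of the pathway genes, 2 were at least 2-fold higher in the main values, 1 with upper-quartile scaling, 0 with a pseudocount of 5 and 0 at 4-fold, and 3 were at least 1.5-fold lower. None were at least 2-fold lower in the main values, and 1 was with a pseudocount of 0.1 and on recovered reads with 0.5 added. The catalytic beta median of 0.49 was 0.39 with upper-quartile scaling and 0.43 after division by the RPKM sum without Sftpc, and the cause is the scaling itself, which shifts log2 ratios by -0.10 and -0.07. The median of activators and inhibitor was 0.08, and -0.03 with upper-quartile scaling. The median of all members was 0.21, and lay between 0.11 and 0.21 under other pseudocounts, filters and scalings. It was 0.24 without Psmc3ip and Psmb11, and the members' summed reads gave a ratio of 1.26 (1.23 to 1.29). Signs of log2 ratios near 0 (Psma4, Psmb1, Psmc3, Psmd3, Psmd12, Psme1, Psmf1) changed in at least 1 scaling. Depth limits Psmb11, with 7 and 0 reads, and the core chaperones, with 9 to 52 reads per library.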

Other observations

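Psmc4 and Psmd8, the members with the highest ratios, lie 1132 kb apart on chromosome 7. This was noticed after their values were seen. Of the 28 genes tested with a start between theirs, 5 passed 2-fold in the higher direction and 1 in the lower, beside 9.38% and 6.53% of all genes tested, and the median log2 ratio was 0.11, beside 0.06 over all genes tested. Over the 31 subunit genes, the rank correlation of the log2 ratio was -0.10 with the control level and -0.17 with gene length, both as descriptions over genes that share 2 libraries.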
